A study of Mus musculus with 11 samples.

Results

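Alanine tRNA was followed through all of its anticodons in mouse embryonic fibroblasts that express SV40 T antigen. The abundance tables hold 301 tRNA entries, and every entry whose name carries alanine was taken, which gave 44: 25 with anticodon AGC, 8 with CGC, 10 with TGC and 1 with GGC. The cells had been transduced with wild-type METTL1 and WDR4 (METTL1-WT), with WDR4 and a METTL1 that the labels call mutant (METTL1-Mut), or with empty vector. All 3 groups are the same wild-type fibroblast line with SV40 T antigen, and each has 2 input libraries, made from AlkB-treated small RNA before any cleavage at N7-methylguanosine (m7G). The labels' protocols speak of stable clones, selected with puromycin and G418 in pBabe vectors, for METTL1-WT and empty vector only. They do not say which change METTL1-Mut carries, nor whether the 2 libraries of a group come from separate clones or dishes, so a p-value here covers no more than the spread of these libraries, part of which may be technical.

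Alanine is encoded by the GCN codon box. In mammalian cells the first base of the AGC anticodon is converted to inosine, which lets this isoacceptor read codons that end in U, C or A, while CGC reads GCG, and TGC reads GCA and GCG. Alanyl-tRNA synthetase recognises a G-U pair in the acceptor stem and not the anticodon, so isoacceptors and even diverged copies can carry the same amino acid. METTL1 methylates guanosine at N7 in the variable loop of some tRNAs and needs WDR4 to do so, and alanine tRNAs with AGC, CGC and TGC anticodons are counted among its substrates.

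The measurement was the authors' RPM, the reads of an entry per 1000000 reads over tRNA entries of a library. It is a share of tRNA reads and holds no total amount of tRNA, and, as bulk RNA was sequenced, fewer cells with a tRNA and less of it per cell cannot be told apart. Implied library totals ranged from 5405585 to 16003708 reads, the lowest being empty vector library 2. METTL1 mRNA is not measured in small RNA, so the construct labels could not be checked here. An entry is said to have risen, fallen or differed where limma's Benjamini-Hochberg adjusted p over all 301 entries was under 0.05, and differences are given on the log2(RPM + 1) scale with their standard error (SE).

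Alanine was the most abundant of the 22 amino acid groups. Its 44 entries took 28.2% and 28.0% of tRNA reads in METTL1-WT libraries, 32.2% and 26.7% in METTL1-Mut libraries, and 31.0% and 31.5% in empty vector libraries. The next group, leucine, averaged 12.2% over the 6 libraries. Within alanine the reads were concentrated in a few entries. The 11 most abundant entries, 5 with CGC and 6 with TGC, held between 89.8% and 92.6% of alanine reads in each library, and all 11 were among the 12 most abundant of the 301 entries. AlaTGC23 was the most abundant entry of the tables, with 35199 and 35023 RPM in METTL1-WT libraries, 38107 and 32253 RPM in METTL1-Mut libraries, and 38500 and 38903 RPM in empty vector libraries. AlaCGC7, AlaTGC104 and AlaCGC6 followed with means over the 6 libraries of 36098, 32832 and 29523 RPM.

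The AGC entries were more numerous and much lower. The 3 highest were AlaAGC588, AlaAGC177 and AlaAGC547, with means of 4853, 4827 and 4236 RPM, and none of the 25 reached the level of the 11 leading CGC and TGC entries. By mean RPM over the 6 libraries, 18 alanine entries were abundant (at least 1000 RPM, from AlaTGC23 down to AlaAGC715 at 1108 RPM), 3 were in a middle class (AlaAGC181 at 886 RPM, AlaAGC259 at 875 RPM and AlaCGC2 at 622 RPM) and 23 were scarce (under 100 RPM, from AlaAGC410 at 90.4 RPM down to AlaGGC139 at 0.286 RPM). The 18 abundant entries together held between 98.7% and 99.3% of alanine reads in each library, and the 23 scarce ones between 0.0897% and 0.123%. Of the scarce entries 17 had anticodon AGC, 2 CGC, 3 TGC and 1 GGC.

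**Figure D1:**
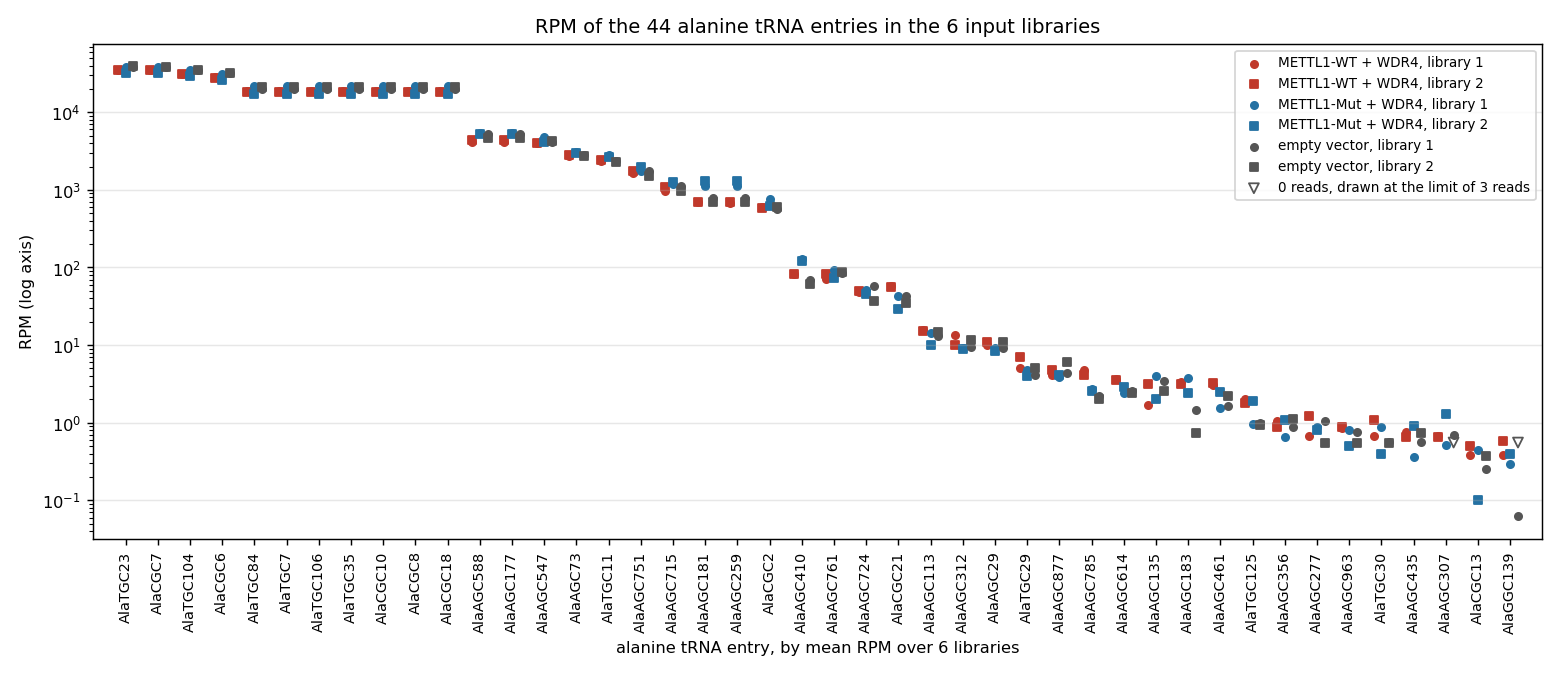
RPM (log axis) of each of the 44 alanine tRNA entries, ordered by mean RPM over 6 libraries, with 1 point per library for METTL1-WT, METTL1-Mut and empty vector. The 11 leading CGC and TGC entries lie at 17198 RPM or more, the next entry averages 4853 RPM, and the METTL1-Mut points of AlaAGC181, AlaAGC259 and AlaAGC410 lie above those of both other groups.

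Several of the leading entries could not be told apart by their values. The 7 entries AlaCGC10, AlaCGC18, AlaCGC8, AlaTGC106, AlaTGC35, AlaTGC7 and AlaTGC84 lay within 0.0962% to 0.122% of each other in every library, a gap of 132 to 311 reads at levels of 113496 to 323623 reads per entry. Their mean was 18611 and 18289 RPM in METTL1-WT libraries, 21688 and 17205 RPM in METTL1-Mut libraries, and 20209 and 21004 RPM in empty vector libraries, and together they made up between 45.1% and 47.1% of alanine reads. This group mixes 2 anticodons. AlaTGC23 and AlaCGC7 also lay within 0.795% of each other in every library, as did AlaAGC588 and AlaAGC177 within 0.716%, and AlaAGC181 and AlaAGC259 within 1.69%. The treatment of multiply fitting reads is not stated in the labels or tables. Tests and counts below are per entry, but the entries of such a group amount to 1 measurement. Groups within 1% were also merged, which leaves AlaAGC181 and AlaAGC259 apart. A CGC or TGC level depends on how shared reads were assigned between the anticodons. The ratio of summed CGC to summed TGC reads lay between 0.828 and 0.838 in all 6 libraries.

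RefSeq's annotation of GRCm38.p6, the mm10 assembly, lists 33 alanine tRNA genes of 72 to 73 bases: 13 with AGC, 9 with CGC, 11 with TGC and 0 with GGC. Most stand in 3 blocks. On chromosome X, chrX:136357602-136590436 holds 12 genes, 5 with CGC and 7 with TGC and none with AGC. On chromosome 13, chr13:21222586-21259839 holds 6 genes (4 AGC, 1 CGC and 1 TGC) and chr13:23285649-23438768 holds 6 (5 AGC and 1 CGC). The numbers in the entry names of the tables are not those of the RefSeq genes, so no entry was assigned to a gene, a position or a sequence here.

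The comparison of METTL1-WT with empty vector asks how tRNA levels differ when the methyltransferase complex is overexpressed. Both abundant isoacceptors fell. Summed CGC entries were at 119640 and 118180 RPM in METTL1-WT libraries, against 131300 and 134360 RPM in empty vector libraries. Summed TGC entries were at 143260 and 141650 RPM in METTL1-WT libraries, against 156630 and 160680 RPM in empty vector libraries. For both anticodons the METTL1-WT libraries lay below both empty vector libraries. The log2 difference was -0.16 for CGC (SE 0.03, limma adjusted p = 8.84e-05) and -0.16 for TGC (SE 0.03, limma adjusted p = 9.16e-06). Of all 54 anticodon sums 22.2% rose and 5.56% fell, and the 2 alanine sums were among 3 that fell. These 2 sums are not independent: the group of 7 near-identical entries and the pair AlaTGC23 and AlaCGC7 each hold entries of both anticodons. The exact permutation test of 2 libraries against 2 can give no p below 0.33.

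Summed AGC entries were at 19173 and 20089 RPM in METTL1-WT libraries, against 22072 and 20457 RPM in empty vector libraries, a log2 difference of -0.11 that did not reach the threshold (95% confidence interval -0.32 to 0.09, limma adjusted p = 0.467). Alanine as a whole stood at 282080 and 279920 RPM in METTL1-WT libraries, against 310000 and 315490 RPM in empty vector libraries. Its log2 difference was -0.15 (SE 0.07, limma adjusted p = 0.0730), short of the threshold that 36.4% of the 22 amino acid sums passed in either direction. The summed RPM outside alanine was higher in METTL1-WT by 0.07 on the log2 scale. As RPM is a share, a lower alanine sum comes with a higher sum of all other entries, and neither can be read alone. The calls on CGC and TGC sums did not hold in every fit: the CGC call was lost without METTL1-WT library 1 (adjusted p = 0.0530) or 2 (0.129), the TGC call without METTL1-WT library 2 (0.0743), and both without a variance trend (0.200 and 0.209) or with METTL1-Mut in a common fit (0.551 each).

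**Figure D2:**
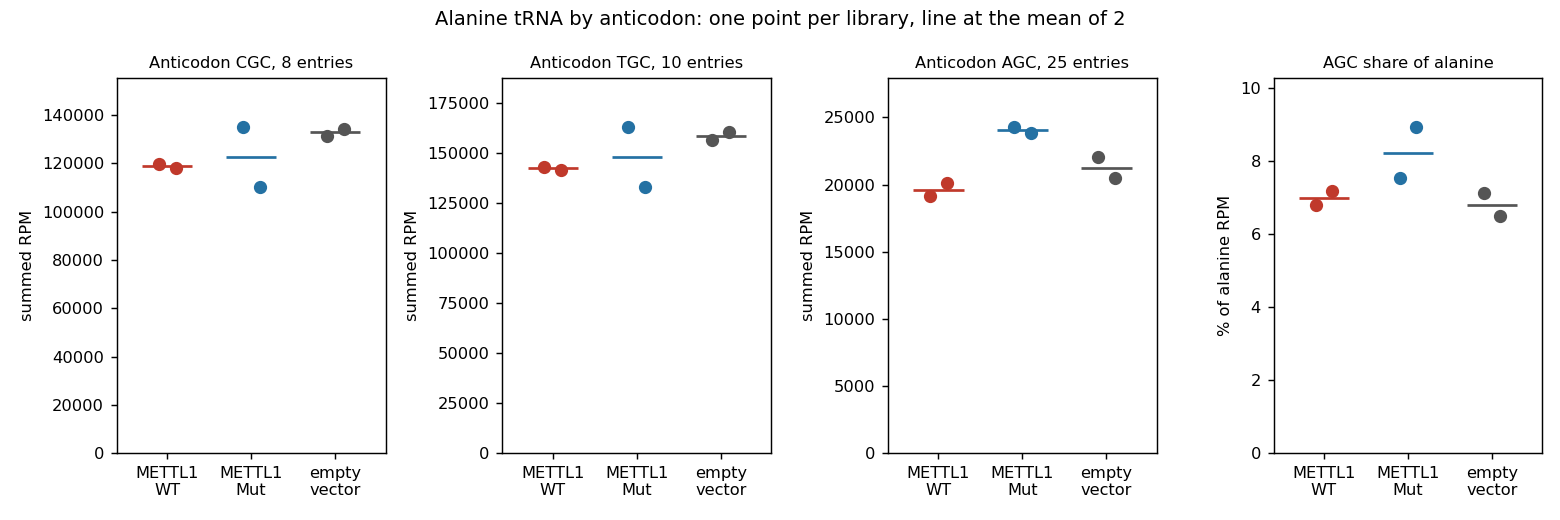
Summed RPM of CGC, TGC and AGC alanine entries and the AGC share of alanine RPM (percent), 1 point per library with a line at the mean, for METTL1-WT, METTL1-Mut and empty vector. CGC and TGC sums are lower in both METTL1-WT libraries than in both empty vector libraries, the 2 METTL1-Mut libraries lie far apart, and AGC is highest in the METTL1-Mut libraries.

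At the level of single entries, 5 of the 44 alanine entries rose in METTL1-WT cells and 13 fell. Among all 301 entries 30.2% rose and 7.31% fell. The 13 falls include 11 entries of near-identical groups, and with each group merged 3 of 36 alanine units fell (8.33%), where 4.36% of all 275 units did. The median log2 difference was 0.01 over the alanine entries and 0.16 over all entries. The 13 that fell were all abundant: the 11 leading CGC and TGC entries with AlaAGC588 and AlaAGC177. Of the single CGC and TGC entries outside near-identical groups, AlaCGC6 had 28229 and 27941 RPM in METTL1-WT libraries, against 31810 and 32058 RPM in empty vector libraries (log2 difference -0.19, SE 0.05, limma adjusted p = 0.00769). AlaTGC104 had 31252 and 31040 RPM in METTL1-WT libraries, against 34918 and 35445 RPM in empty vector libraries (log2 difference -0.18, SE 0.05, limma adjusted p = 0.00948). The METTL1-WT libraries of both entries lay below both empty vector libraries.

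AlaAGC588 had 4112 and 4368 RPM in METTL1-WT libraries, against 5230 and 4719 RPM in empty vector libraries, with a log2 difference of -0.23 (SE 0.08, limma adjusted p = 0.0328). AlaAGC177, near-identical to it in value, gave -0.23 as well. The 7 near-identical CGC and TGC entries each differed by -0.16 (limma adjusted p = 0.0351). The pair AlaTGC23 and AlaCGC7 differed by -0.14 (limma adjusted p = 0.0321 and 0.0294). When each set of near-identical entries was merged into 1 unit, 3 units fell, AlaCGC6, AlaTGC104 and the AlaAGC177 pair, while the group of 7 (limma adjusted p = 0.0826) and the AlaTGC23 pair (0.0991) did not reach the threshold. The calls on these falls were lost without METTL1-WT library 1 or 2, and fewer held without empty vector library 1 or 2. The differences of the entries that fell stayed negative in all alternatives, but that of AlaAGC588 shrank to as little as -0.16. The median over the abundant alanine entries, which counts the group of 7 as separate entries, was -0.17 without METTL1-WT library 1 and -0.15 without library 2. It was -0.17 without empty vector library 1 and -0.13 without library 2. A lone library is assumed to vary like the other group.

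Not every abundant entry was lower in METTL1-WT. AlaAGC73 had 2713 and 2792 RPM in METTL1-WT libraries, against 2812 and 2705 RPM in empty vector libraries, and the groups overlapped (log2 difference -0.003, 95% confidence interval -0.18 to 0.17). AlaTGC11, the only abundant TGC entry outside the leading group, had 2342 and 2406 RPM in METTL1-WT libraries, against 2355 and 2289 RPM in empty vector libraries (log2 difference 0.03, 95% confidence interval -0.14 to 0.21).

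The 5 entries that rose in METTL1-WT were all scarce. AlaCGC21 had 58.2 and 56.5 RPM in METTL1-WT libraries, against 42.6 and 34.6 RPM in empty vector libraries (log2 difference 0.57, SE 0.13, limma adjusted p = 0.00174). AlaAGC410 had 82.3 and 83.0 RPM in METTL1-WT libraries, against 68.0 and 60.5 RPM in empty vector libraries (log2 difference 0.36, SE 0.12, limma adjusted p = 0.0202). These 2 rested on 187 to 1147 reads per library, and in both the METTL1-WT libraries lay above both empty vector libraries.

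The other 3 rested on few reads. AlaAGC183 had 3.33 and 3.19 RPM in METTL1-WT libraries (35 and 44 reads), against 1.44 and 0.740 RPM in empty vector libraries (23 and 4 reads), with a log2 difference of 1.05 (SE 0.22, limma adjusted p = 0.00118). AlaAGC785 had 4.75 and 4.13 RPM in METTL1-WT libraries (50 and 57 reads), against 2.19 and 2.03 RPM in empty vector libraries (35 and 11 reads), with a log2 difference of 0.80 (SE 0.20, limma adjusted p = 0.00283). AlaTGC125 had 2.00 and 1.81 RPM in METTL1-WT libraries, against 1.00 and 0.925 RPM in empty vector libraries (log2 difference 0.56, SE 0.22, limma adjusted p = 0.0477). At this level the pseudocount of 1 RPM understates the difference. The call on AlaAGC183 held in all 13 alternatives in which it was tested and that on AlaCGC21 in 13 of 14, while AlaAGC410 was called in 6 of 14 and AlaTGC125 in 3 of 13. AlaAGC785 lost its call only without METTL1-WT library 1 (adjusted p = 0.0815). The count of rises was 8 without empty vector library 1, 2 without METTL1-WT library 1 and 3 without METTL1-WT library 2.

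In METTL1-Mut cells a few AGC entries rose and none of the abundant entries was called. Against empty vector 4 of the 44 alanine entries rose and 0 fell, at a background of 7.31% rises and 0.997% falls over all 301 entries. No other alanine entry had an unadjusted limma p under 0.05. The median log2 difference was -0.02 over alanine entries and 0.09 over all entries. With near-identical groups merged, 11.1% of 36 alanine units rose, where 8.36% of all 275 units did, so the count lies near the background. All 4 that rose carry anticodon AGC, as do 25 of the 44 alanine entries. Among the 4, AlaAGC181 and AlaAGC259 amount to 1 measurement.

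AlaAGC181 had 1121 and 1308 RPM in METTL1-Mut libraries, against 784 and 700.0 RPM in empty vector libraries (log2 difference 0.71, SE 0.14, limma adjusted p = 1.58e-05). AlaAGC259, close to it in value in every library, had 1109 and 1297 RPM in METTL1-Mut libraries, against 774 and 690.0 RPM in empty vector libraries (log2 difference 0.71, SE 0.14, limma adjusted p = 1.58e-05). AlaAGC410 had 129 and 119.8 RPM in METTL1-Mut libraries, against 68.0 and 60.5 RPM in empty vector libraries (log2 difference 0.94, SE 0.16, limma adjusted p = 1.14e-06). In all 3 entries both METTL1-Mut libraries lay above both empty vector libraries, and the calls held in all 14 alternatives. AlaAGC183 had 3.81 and 2.39 RPM in METTL1-Mut libraries, against 1.44 and 0.740 RPM in empty vector libraries (log2 difference 0.97, SE 0.27, limma adjusted p = 0.00769). That call was lost without METTL1-Mut library 1 (adjusted p = 0.162), without empty vector library 2 (0.532) and when values were scaled to the reads outside alanine (0.101).

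The 4 entries were a small part of the AGC family. Summed AGC entries were at 24257 and 23823 RPM in METTL1-Mut libraries, against 22072 and 20457 RPM in empty vector libraries, and the libraries did not overlap, but the log2 difference of 0.18 did not reach the threshold (95% confidence interval -0.10 to 0.46, limma adjusted p = 0.512). AlaAGC181, AlaAGC259 and AlaAGC410 together made up 2542 ± 259 RPM in METTL1-Mut and 1539 ± 125 RPM in empty vector (SD, n = 2 each). The other 22 AGC entries together were at 21898 and 21098 RPM in METTL1-Mut libraries, against 20446 and 19006 RPM in empty vector libraries.

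The METTL1-Mut libraries did not agree on the abundant isoacceptors. Summed CGC entries were at 134900 and 110260 RPM in METTL1-Mut libraries, against 131300 and 134360 RPM in empty vector libraries, so library 1 lay above both and library 2 below both. Summed TGC entries showed the same order, at 162890 and 132920 RPM in METTL1-Mut libraries, against 156630 and 160680 RPM in empty vector libraries. The median ratio of METTL1-Mut library 1 to library 2 was 1.26 over the 12 abundant CGC and TGC entries and 1.03 over the 6 abundant AGC entries. Of the 4 alanine anticodon sums 0 were called (CGC -0.12, limma adjusted p = 0.720, TGC -0.11, limma adjusted p = 0.734) and 1, GGC, had an unadjusted limma p under 0.05, at a background of 5.56% of the 54 sums called in either direction. The sign of these values rests on a single library: without METTL1-Mut library 1 the log2 difference was -0.27 for CGC and -0.26 for TGC. Without METTL1-Mut library 2 it was 0.02 and 0.04. A fit with 1 METTL1-Mut library takes its spread from empty vector alone, so no call is read from it. Alanine in total differed by -0.09 (95% confidence interval -0.50 to 0.32, limma adjusted p = 0.793), where 13.6% of amino acid sums were called.

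Set directly against each other, METTL1-WT and METTL1-Mut differed in 4 alanine entries, of which AlaAGC181 and AlaAGC259 amount to 1 measurement. Of the 44 entries 1 was higher and 3 were lower in METTL1-WT, at a background of 11.3% higher and 3.65% lower over all 301 entries, and the median log2 difference was -0.03 over alanine entries and 0.10 over all entries. AlaAGC181 had 696 and 708 RPM in METTL1-WT libraries, against 1121 and 1308 RPM in METTL1-Mut libraries (log2 difference -0.79, SE 0.12, limma adjusted p = 4.18e-08). AlaAGC259 had 684 and 699 RPM in METTL1-WT libraries, against 1109 and 1297 RPM in METTL1-Mut libraries (log2 difference -0.79, SE 0.12, limma adjusted p = 4.18e-08). Against empty vector, METTL1-WT libraries were not called for either entry (log2 difference -0.08 each), and this difference was near 0 without empty vector library 1 (0.004 for AlaAGC181 and 0.003 for AlaAGC259). Both calls between METTL1-WT and METTL1-Mut held in all 14 alternatives.

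AlaAGC410 took an intermediate place in METTL1-WT, though its rise over empty vector was called in only 6 of 14 alternatives. It had 82.3 and 83.0 RPM in METTL1-WT libraries, against 129 and 119.8 RPM in METTL1-Mut libraries (log2 difference -0.58, SE 0.16, limma adjusted p = 0.00626), and no library of one group overlapped another group. AlaCGC21 went the other way, with 58.2 and 56.5 RPM in METTL1-WT libraries, against 42.7 and 29.1 RPM in METTL1-Mut libraries (log2 difference 0.69, SE 0.18, limma adjusted p = 0.00313). For AlaCGC21 the METTL1-Mut and empty vector libraries overlapped. The AlaAGC410 call was lost without METTL1-WT library 1 (adjusted p = 0.295) or 2 (0.282), and the AlaCGC21 call without either of them (0.287 and 0.231) and with scaling to the reads outside alanine (0.0774).

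**Figure D3:**
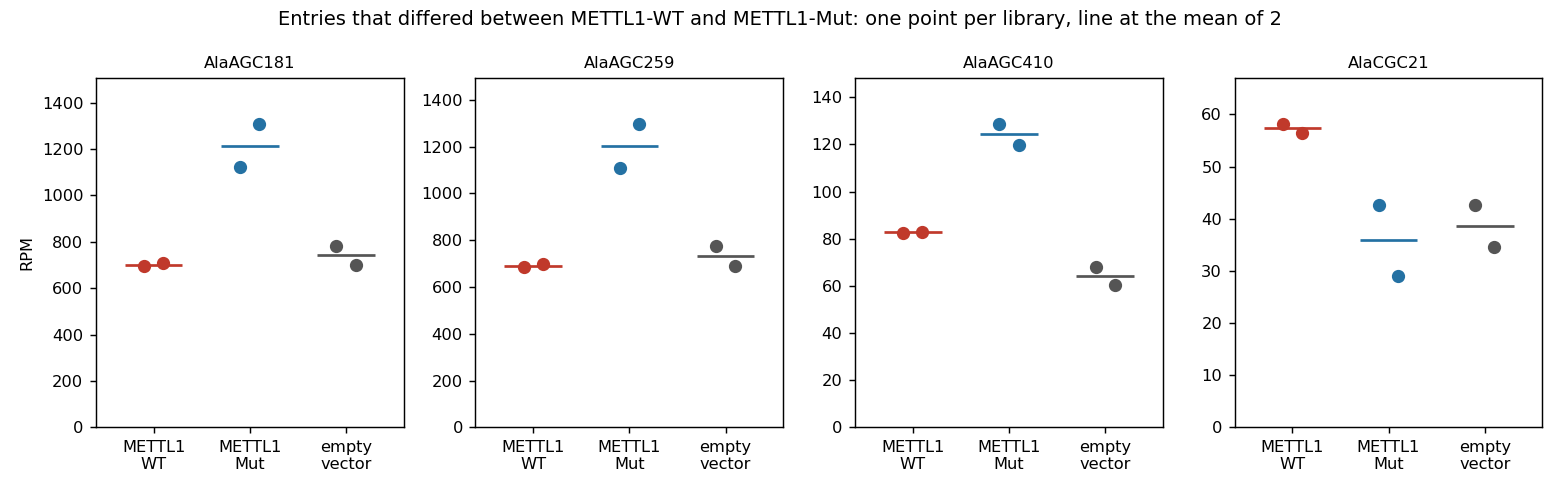
RPM of AlaAGC181, AlaAGC259, AlaAGC410 and AlaCGC21 in METTL1-WT, METTL1-Mut and empty vector, 1 point per library with a line at the mean of 2. AlaAGC181 and AlaAGC259 are at 1109 to 1308 RPM in the METTL1-Mut libraries and at 684 to 784 RPM in the other 4, AlaAGC410 shows 3 separate levels, and AlaCGC21 is highest in METTL1-WT.

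Between the constructs the summed AGC entries did not pass the threshold. Their sum was at 19173 and 20089 RPM in METTL1-WT libraries, against 24257 and 23823 RPM in METTL1-Mut libraries, a log2 difference of -0.29 (95% confidence interval -0.52 to -0.06) with a limma adjusted p of 0.0626. Of the 4 alanine anticodon sums 0 were called and 1, AGC, had an unadjusted limma p under 0.05, at a background of 5.56% of the 54 sums called in either direction. The AGC sum passed the threshold without METTL1-Mut library 1 (log2 difference -0.28, adjusted p = 0.0473) or library 2 (-0.31, 0.0223), where the lone library is assumed to vary like METTL1-WT. It did not without METTL1-WT library 1 (-0.26, adjusted p = 0.705) or library 2 (-0.33, 0.427). The CGC and TGC sums differed by -0.04 (95% confidence interval -0.46 to 0.39) and -0.05 (-0.51 to 0.42), and neither was called. The sign of these too rests on a single library: without METTL1-Mut library 2 the log2 difference was -0.18 for CGC and -0.19 for TGC. Without METTL1-Mut library 1 the values turned to 0.11 and 0.10. The count of alanine entries lower in METTL1-WT was 7 without METTL1-Mut library 1 and 16 without METTL1-Mut library 2, and that of entries higher was 4 without either one. Alanine in total differed by -0.06 (limma adjusted p = 0.846), where 9.09% of amino acid sums were called.

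As a share of alanine reads, AGC made up 6.80% and 7.18% in METTL1-WT libraries, 7.53% and 8.92% in METTL1-Mut libraries, and 7.12% and 6.48% in empty vector libraries. The METTL1-WT and empty vector libraries overlapped, and both METTL1-Mut libraries lay above the other 4. METTL1-Mut library 2 had both the highest AGC share and the lowest CGC and TGC sums.

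In METTL1-WT against empty vector the medians of the abundant and the scarce alanine entries had opposite signs in RPM as deposited. Of the 18 abundant alanine entries 0 rose and 13 fell, with a median log2 difference of -0.16. Of the 23 scarce ones 5 rose and 0 fell, with a median of 0.17. The abundant entries include copies of single measurements, among them the group of 7 near-identical entries at -0.16 each. With near-identical groups merged, 3 of 36 alanine units fell, all of them abundant. No class median was taken over merged units. Among the abundant entries 2 lay above 0, and among the scarce entries 4 lay below it. The sign of the scarce median depended on the scaling: it was -0.03 with libraries centred on the median of the entries taken to lack m7G (the no-m7G list), and 0.01 with libraries shifted by the median of ratios over all entries. The abundant median was -0.365 and -0.32 under these scalings. Entries of other amino acids showed a difference between the classes too, with 22 rises and 5 falls among 116 abundant entries (median 0.05) and 29 rises and 1 fall among 76 scarce ones (median 0.35). The difference between alanine and the other entries was not tested. Against empty vector, METTL1-Mut had 0 rises and 0 falls among the 18 abundant entries (median -0.09) and 2 rises among the 23 scarce ones (median -0.004). Entries outside alanine had 5 rises and 2 falls among 116 abundant ones (median 0.025). Among their 76 scarce ones there were 4 rises and 0 falls (median 0.17). Between METTL1-WT and METTL1-Mut, 0 abundant alanine entries were called, 3 had an unadjusted limma p under 0.05, and the median was -0.07. Among the scarce alanine entries 1 was higher and 1 lower, with a median of 0.18. Outside alanine, 10 of 116 abundant entries were higher and 1 lower (median 0.05). Of 76 scarce ones 9 were higher and 3 lower (median 0.22).

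**Figure D4:**
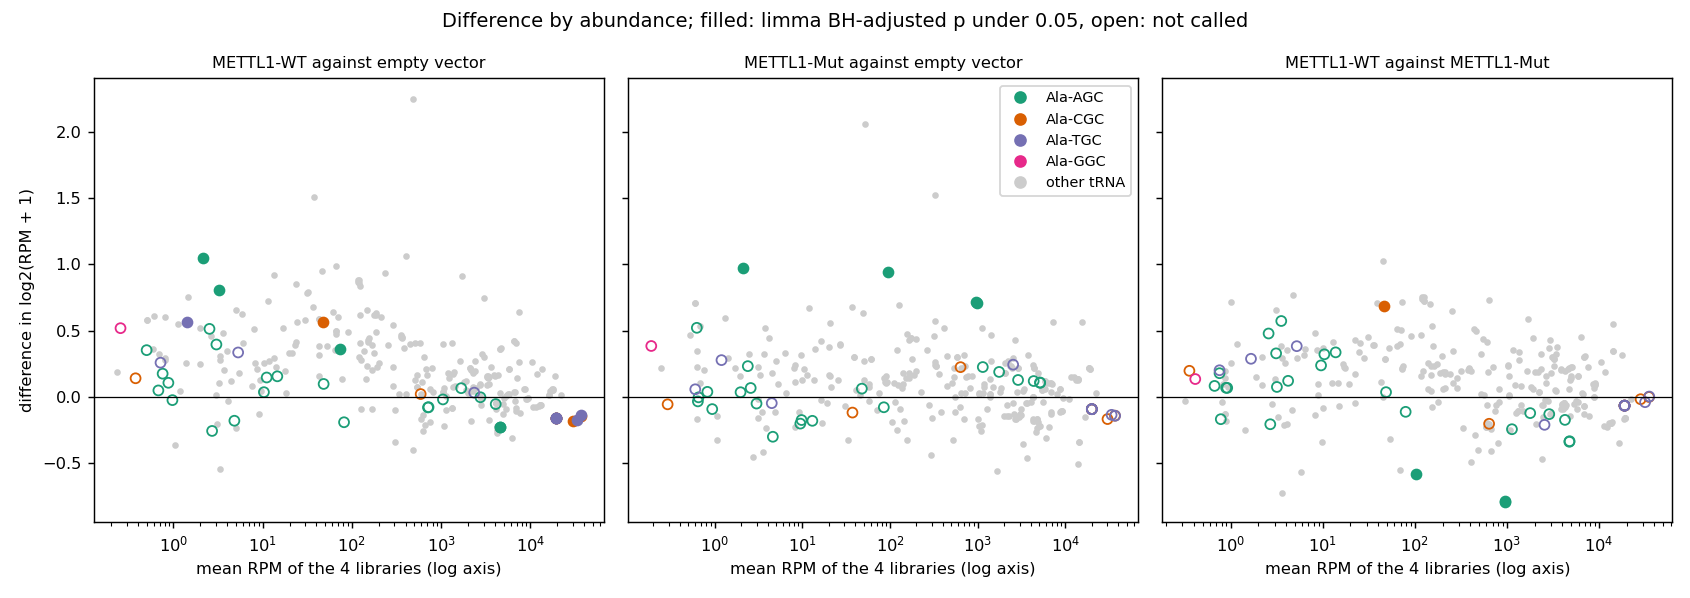
Difference in log2(RPM + 1) of each entry against its mean RPM over the 4 libraries compared (log axis), for METTL1-WT against empty vector, METTL1-Mut against empty vector and METTL1-WT against METTL1-Mut, with alanine entries coloured by anticodon and the other tRNA entries in grey. In METTL1-WT against empty vector the filled alanine points, those called, lie below 0 at the abundant end and above 0 at the scarce end, and the filled AGC points of METTL1-Mut lie above 0.

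The scarcest entries were at the limit of what the depth can show. AlaGGC139, the single GGC entry, had 4 and 8 reads in METTL1-WT libraries, 4 and 4 in METTL1-Mut libraries, and 1 and 0 in empty vector libraries. Pooled over the 2 libraries of a group this is 0.493 RPM in METTL1-WT (95% exact Poisson interval 0.255 to 0.861), 0.338 RPM in METTL1-Mut (0.146 to 0.666) and 0.0467 RPM in empty vector (0.00118 to 0.260). The ratio of METTL1-WT to empty vector was 10.6 with an exact 95% interval of 1.56 to 451, and that of METTL1-Mut to empty vector 7.24 with an interval of 0.970 to 321. These intervals cover counting error only, and across libraries the entry was not called in METTL1-WT (limma adjusted p = 0.120) or METTL1-Mut (0.599). AlaAGC307 had 7 and 9 reads in METTL1-WT libraries, 7 and 13 in METTL1-Mut libraries, and 11 and 0 in empty vector libraries. Both zeros fell in empty vector library 2, the shallowest, where 0 reads allow up to 0.555 RPM. AlaCGC13 had between 1 and 7 reads in every library, and no difference was detectable for it at this depth.

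Other tRNA families that are taken to carry m7G gave other counts. A list of such families, drawn from knowledge of tRNA variable loops, has 133 entries outside alanine, and a second list holds 105 entries taken to lack m7G. In METTL1-WT against empty vector, 5 of the 44 alanine entries rose and 13 fell. There were 60 rises and 2 falls among the 133 (median log2 difference 0.26) and 25 rises and 6 falls among the 105 (median 0.11). Over all 301 entries 30.2% rose and 7.31% fell. With near-identical groups merged, 3 of 36 alanine units fell, and the lists were not counted in merged units. In METTL1-Mut against empty vector, 4 alanine entries rose and 0 fell, against 7 and 1 of the 133 (median 0.11). Of the 105, 8 rose and 2 fell (median 0.10). Over all 301 entries 7.31% rose and 0.997% fell. In METTL1-WT against METTL1-Mut, 1 alanine entry was higher and 3 were lower, against 17 and 4 of the 133 and 15 and 3 of the 105. Over all 301 entries 11.3% were higher and 3.65% lower. No test was made between these lists. The comparisons of METTL1-WT and METTL1-Mut with empty vector share the empty vector libraries.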

How the data were processed

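Reads were processed with Bowtie, Trim Galore and bedtools on build mm10, per the submitters' processing notes; versions and the handling of multiply fitting reads are not given in the sources used here. RPM values (per 1000000 reads over tRNA entries) were deposited in 2 tables with the same 301 entries and identical empty vector columns. Each RPM was a whole multiple of 1 read within 0.01 reads, which gave implied totals of 5405585 to 16003708 reads; intervals and floors (3 reads) from these cover counting error only. Of the 11 samples the 5 cleaved ones were not used.

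Log2(RPM + 1) was fitted in limma 3.58.1 (R 4.3.3) with a variance trend, on the 4 libraries of each comparison, without covariates or filter, two-sided, with Benjamini-Hochberg adjustment over 301 entries, 54 anticodon sums or 22 amino acid sums and a threshold of 0.05. The fit was tested on simulated data. Near-identical means within 1% in all 6 libraries (5% as the wider tolerance). The members, lists and classes were chosen with earlier results of these data known. Called entries were picked from the same libraries, so a lack of overlap between their groups adds no support to a call.

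Entries named are those past the threshold (the 10 largest where more passed), the 3 most abundant per anticodon, AlaGGC139, entries at 0 in any library, the ends of each abundance class and near-identical groups. AlaAGC73 and AlaTGC11 were chosen after their values were seen.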

Additional observations from a re-analysis of the deposited data

Results flagged for a closer look

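In 4 entries the effect of METTL1-WT differed from that of METTL1-Mut in a direct test between the constructs. The log2 difference of METTL1-WT minus METTL1-Mut was -0.79 for AlaAGC181 (limma adjusted p = 4.18e-08) and -0.79 for AlaAGC259 (4.18e-08), which have close values in every library and count as 1 measurement. It was -0.58 for AlaAGC410 (0.00626) and 0.69 for AlaCGC21 (0.00313). In each entry both METTL1-WT libraries lay on the same side of both METTL1-Mut libraries. As these entries were picked by this same comparison, that adds no support. Some entries that were not called, such as AlaAGC73 and AlaTGC11, did not overlap between the constructs either.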

How the results depend on the processing

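In METTL1-WT against empty vector the count of alanine entries that rose (5) was 2 at a mean of at least 10 RPM or centred on the no-m7G list, 8 without the variance trend, and 3 with all 6 libraries in 1 fit, centred on all entries, with medians of ratios or scaled to reads outside alanine. The count that fell (13) was 0 without the trend or with all 6 libraries, 2 centred on all entries and 3 with near-identical entries merged. The AGC sum became lower at -0.32 (adjusted p = 0.0216) centred on the no-m7G list and -0.28 (0.0320) with medians of ratios. The CGC sum (-0.16) and TGC sum (-0.16) were not called without the trend or with all 6 libraries, where GGC was higher at 0.52 (0.00461 and 0.0415). Total alanine was lower at -0.15 with a pseudocount of 10 (0.0458) or a mean of at least 10 RPM (0.0468), at -0.36 centred on the no-m7G list (0.000985) and at -0.32 with medians of ratios (0.0108). These last 2 settings moved the median of all entries, 0.16, to -0.05 and -0.004, and turned AlaAGC724 to -0.108 and -0.065. For METTL1-WT against METTL1-Mut the higher count (1) was 2 with a pseudocount of 10, 3 without the trend and 0 scaled to reads outside alanine. The lower count (3) was 5 with a pseudocount of 10, a mean of at least 10 RPM or all 6 libraries, and 6 with medians of ratios, where the AGC sum was lower at -0.40 (0.0123). With 10 RPM as the only class boundary, scarce entries had 3 rises in METTL1-WT and 1 in METTL1-Mut against empty vector and 0 higher and 0 lower between the constructs. Abundant ones then had 2 and 3 rises, and 1 higher and 3 lower. The causes were not tested.

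Leaving out 1 library gave these ranges. In METTL1-WT against empty vector, 2 to 8 entries rose and 0 to 9 fell, the CGC sum lay at -0.18 to -0.14 and the TGC sum at -0.17 to -0.14, AlaAGC181 and AlaAGC259 at -0.16 to 0.0040 and 0.0031, AlaAGC724 at -0.22 to 0.42 and AlaAGC307 at -0.025 to 0.73. In METTL1-Mut against empty vector, 0 to 1 entries fell, the CGC sum lay at -0.27 to 0.022, the TGC sum at -0.26 to 0.038, the GGC sum at 0.33 to 0.44 and total alanine at -0.23 to 0.042. In METTL1-WT against METTL1-Mut, 0 to 4 entries were higher and 2 to 16 lower, the AGC sum lay at -0.33 to -0.26, CGC at -0.18 to 0.11, TGC at -0.19 to 0.10, total alanine at -0.20 to 0.074, each of the 7 near-identical entries at -0.23 to 0.10 and AlaAGC135 at -0.57 to 0.16. A lone library is assumed to vary like the other group.

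Same-numbered libraries share only a number: their deviations correlated at 0.093, -0.116 and -0.054 over all entries. With the replicate block, METTL1-WT had 4 rises and 13 falls against empty vector (AlaTGC125 lost its call), METTL1-Mut 4 and 0, and METTL1-WT against METTL1-Mut 1 higher and 3 lower, with the AGC sum at an adjusted p of 0.218. The planned count-model fits were not run. Scaling to reads outside alanine and medians of ratios were chosen after seeing the data. Depth limits entries under about 1 RPM, where 3 reads amount to 0.187 to 0.555 RPM.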

Other observations

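AlaCGC2, an entry named for alanine, had nearly the same reads as GlyCCC14, an entry named for glycine. They differed by 0.179% to 0.565% in each of the 6 libraries. AlaCGC2 had 606 and 582 RPM in METTL1-WT libraries, 764 and 611 RPM in METTL1-Mut libraries, and 575 and 595 RPM in empty vector libraries. GlyCCC14 had 607 and 583 RPM in METTL1-WT libraries, 766 and 613 RPM in METTL1-Mut libraries, and 579 and 597 RPM in empty vector libraries. Whether these reads belong to an alanine or a glycine tRNA was not tested.

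The ratio of summed CGC to summed TGC reads was 0.835 and 0.834 in METTL1-WT libraries, 0.828 and 0.830 in METTL1-Mut libraries, and 0.838 and 0.836 in empty vector libraries. The ratios of the METTL1-Mut libraries lay below the other 4, although the sums themselves differed widely between METTL1-Mut libraries 1 and 2.

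The level of AlaAGC181 relative to the abundant AlaAGC73 was 0.256 and 0.254 in METTL1-WT libraries, 0.367 and 0.441 in METTL1-Mut libraries, and 0.279 and 0.259 in empty vector libraries. Both METTL1-Mut libraries lay above the other 4. AlaAGC181 has values close to those of AlaAGC259 in every library, and reads that fit both may be counted in it. The level of AlaAGC410 relative to AlaAGC73 was 0.0303 and 0.0297 in METTL1-WT libraries and 0.0421 and 0.0404 in METTL1-Mut libraries. In empty vector libraries it was 0.0242 and 0.0224. AlaAGC181 and AlaAGC410 were called from these same libraries, and AlaAGC73 was chosen after its values were seen. These ratios therefore add no support to the calls.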
